A study of Mus musculus with 21 samples.

Results

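Mitochondrial DNA encodes a small set of RNAs, and 9 of its rows in the gene table are described here, those other than the complex I mRNAs. They are mt-Co1, mt-Co2 and mt-Co3, the catalytic core subunits of complex IV (cytochrome c oxidase), mt-Cytb, the cytochrome b of complex III, mt-Atp6 and mt-Atp8, membrane subunits of complex V (ATP synthase), mt-Rnr1 and mt-Rnr2, the 12S and 16S ribosomal RNAs (rRNAs), and mt-Tm, the methionine transfer RNA (tRNA). The rows were chosen by name from a table of 20960 genes, of which 26 are encoded in mitochondrial DNA. The rule used no measured value, but earlier results of these data were known when the rows were chosen. RNA was sequenced from hearts of adult male wild-type mice, 4 of which had received polystyrene nanoplastics and 3 distilled water as control, over 8 weeks. Each heart was perfused with cold buffered saline and cut into an atrial section, a right ventricle and a left ventricle, giving 21 bulk libraries, 1 per section of each mouse. The library kit captured polyadenylated RNA on oligo-dT beads and placed the sample barcode at the 5′ end of the cDNA.

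Mitochondrial DNA is a circle that is transcribed into long precursors, and most of the mRNAs and both rRNAs are cut free where tRNAs lie between them. The mRNAs encode only membrane subunits of the respiratory chain and of ATP synthase, and the rRNAs form the mitochondrial ribosome that translates them. Heart muscle is packed with mitochondria, so these RNAs are among the most abundant in cardiac tissue, and both the mitochondrial mRNAs and the rRNAs carry short 3′ tails that oligo-dT can capture.

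Parts of mitochondrial DNA have been copied into nuclear chromosomes, and for 3 members the copy holds the same letters, so the sequences bear directly on what was counted. All sequences are transcripts of the GENCODE M21 annotation of the mouse, written 5′ to 3′. The start of mt-Co2 is shown above the same stretch of Gm28661, a nuclear pseudogene, because the 2 runs do not differ at any of 60 bases. The stretch of mt-Co1 that begins at its base 1063 is shown above Gm29216 from the same nuclear block, and capitals mark the only base of 60 that differs. The start of mt-Cytb, from its base 2, is shown above Gm11410, its nearest nuclear copy, and capitals mark the 3 bases of 60 that differ.
mt-Co2: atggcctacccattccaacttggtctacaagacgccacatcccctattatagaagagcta
Gm28661: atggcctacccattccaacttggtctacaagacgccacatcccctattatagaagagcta
mt-Co1: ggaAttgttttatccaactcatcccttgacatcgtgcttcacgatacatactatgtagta
Gm29216: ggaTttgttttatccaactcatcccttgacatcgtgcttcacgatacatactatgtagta
mt-Cytb: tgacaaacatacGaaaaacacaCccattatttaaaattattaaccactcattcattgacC
Gm11410: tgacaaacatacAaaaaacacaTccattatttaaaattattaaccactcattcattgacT

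The rows of mt-Atp8, mt-Atp6 and mt-Tm are shown because their size and overlap limit what a count can mean. Capitals in mt-Atp8, printed whole, mark the 43 bases that are also the start of mt-Atp6, of which the first 60 bases follow. In mt-Tm, printed whole at 69 bases, capitals mark the anticodon.
mt-Atp8: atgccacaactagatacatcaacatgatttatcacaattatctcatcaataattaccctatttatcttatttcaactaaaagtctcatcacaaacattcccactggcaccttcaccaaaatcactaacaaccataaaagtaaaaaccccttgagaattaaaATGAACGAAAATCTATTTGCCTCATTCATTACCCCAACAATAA
mt-Atp6: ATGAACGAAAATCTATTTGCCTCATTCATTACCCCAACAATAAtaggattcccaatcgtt
mt-Tm: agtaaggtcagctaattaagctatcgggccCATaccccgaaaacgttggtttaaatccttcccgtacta

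Counts were split sharply between members. mt-Co1 held 1801473 counts over the 21 libraries, 7.086% of all counts in the study, and mt-Cytb held 1602564, or 6.303%. The rRNAs followed, mt-Rnr2 with 559765 counts (2.202%) and mt-Rnr1 with 172125 (0.677%). The remaining 5 members together were rare. mt-Tm had 683 counts, mt-Co2 had 98, mt-Co3 had 53, mt-Atp6 had 51 and mt-Atp8 had 8, and mt-Atp8 was at 0 in 15 of 21 libraries. In the largest control library, the left ventricle of mouse 1, a count of 0 allows a level of up to 1.23 CPM, which is 3 counts. CPM is a count scaled to the library's total, so that libraries of different depth can be compared.

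Of the 4 rare mRNAs, mt-Co2, mt-Co3 and mt-Atp6 had an exact copy of nearly their whole length among annotated nuclear transcripts, and mt-Atp8 did not. Gm28661 was identical to mt-Co2 over 681 aligned bases, Gm28437 to mt-Co3 over 783 and Gm10925 to mt-Atp6 over 678. Every window of 50 bases in mt-Co2 also occurred in a nuclear transcript, as did 99.9% of those in mt-Co3 and 99.5% of those in mt-Atp6. In mt-Co1 the share was 51.1%, in mt-Rnr2 it was 1%, and in mt-Cytb, mt-Rnr1, mt-Atp8 and mt-Tm no window recurred. The nuclear copies held more counts than the mitochondrial rows, Gm28661 with 438, Gm28437 with 479 and Gm10925 with 245, while Gm29216, which covers the 3′ end of mt-Co1 with 1 difference in 483 bases, held 237.

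These copies lie in an unbroken row of genes on 1 nuclear chromosome, in the order Gm28439, Gm10222, Gm28438, Gm28437, Gm10925, Gm28661 and Gm29216, the reverse of the order of their mitochondrial counterparts from mt-Nd4 back to mt-Co1. The complex I rows followed the same division in part. mt-Nd4l, with 98.8% of its windows copied, held 35 counts, whereas mt-Nd3, with 98% copied, held 25313. mt-Atp8 had no nuclear window of its own and was nevertheless almost uncounted. At 204 bases mt-Atp8 is the shortest of the mRNA rows, and it shares a transcript with mt-Atp6. How reads that match several places were counted is not stated in the sources used here, so the levels of mt-Co2, mt-Co3 and mt-Atp6 cannot be read as the levels of those mRNAs, and the part that shared sequence plays in their low counts was not tested.

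**Figure D1:**
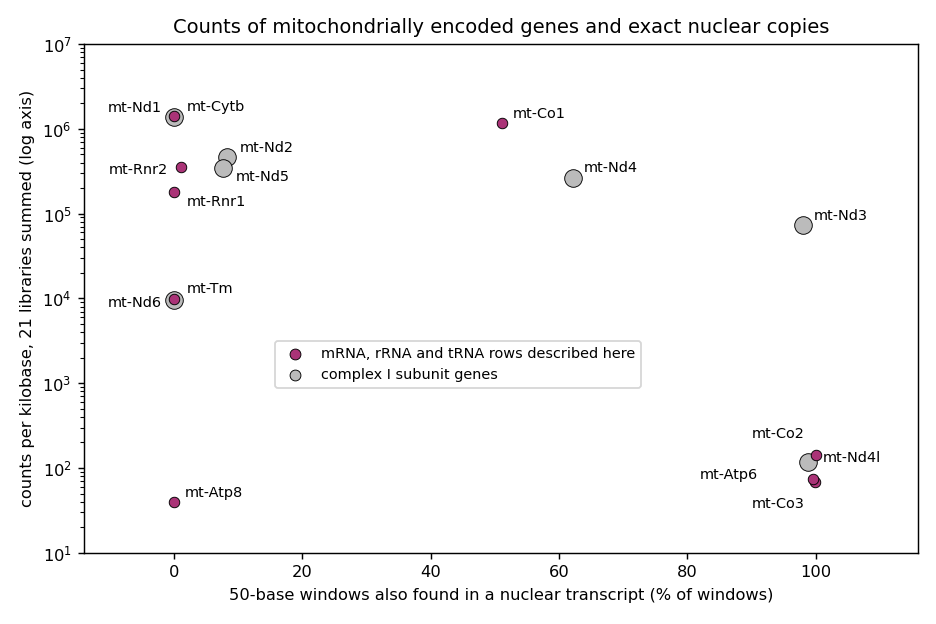
Counts per kilobase of each mitochondrially encoded mRNA, rRNA and mt-Tm, summed over 21 libraries (vertical, log axis), against the percent of its 50-base windows that recur in a nuclear transcript (horizontal). Small filled points are the rows described here and large grey points the complex I rows; mt-Co2, mt-Co3 and mt-Atp6 sit at the lower right with mt-Nd4l, and mt-Atp8 sits low with no copied window.

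Per kilobase, mt-Cytb had the highest median level of the 9 rows, 55990 CPM per kilobase over the 20 libraries above 10000 counts, ahead of mt-Co1 at 42220. mt-Cytb was above mt-Co1 in 19 of these 20 libraries, although their ranges overlapped (29110 to 66990 and 23940 to 74990). mt-Rnr2 followed at 14090 and mt-Rnr1 at 6924, and each was below the row before it in 20 of 20 libraries. mt-Tm had 273.9 CPM per kilobase. The last 4 rows had medians from 0 to 4.494, and there the order was not stable between libraries, with mt-Co3 above mt-Atp6 in 11 and below it in 9. Scaling by length treats reads as spread over the whole transcript, which a kit that marks 5′ ends may not give.

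The depth of the libraries set which comparisons were possible. The right ventricle of nanoplastics mouse 2 held 4662 counts, against 413436 to 2439314 in the other 20 libraries, so 1 count there equals 214.5 CPM, and right ventricular fits were made with and without it. All mitochondrially encoded rows together took 15.57 to 33.96% of a library's counts, and the 9 rows took 9.114 to 20.94%. The labelled atrial section was checked against its markers. The summed level of 5 atrial muscle genes (Myl7, Myl4, Sln, Nppa and Bmp10) was 63890 CPM in the atrial library of nanoplastics mouse 1 and 3187 CPM in that of mouse 4, but 29.3 to 642.8 CPM in the other 5, against 0 to 2248 CPM in the ventricles. Ventricular markers stood at 13680 to 22440 CPM in the atrial libraries and at 16520 to 21370 CPM in the ventricular ones, so most libraries labelled atrial did not carry the markers of atrial muscle. In bulk tissue, fewer cells of a type and less RNA per cell cannot be told apart.

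With the sections of each mouse summed, both mitochondrial rRNAs rose with nanoplastics, and no mRNA among the 9 rows passed the test. mt-Rnr2 was 1.53-fold and mt-Rnr1 1.43-fold the control level, while mt-Co1 differed by 0.02 on the log2 scale. Of the 9 rows, 6 passed the filter on low counts (mt-Co1, mt-Co2, mt-Cytb, mt-Rnr1, mt-Rnr2 and mt-Tm), and 2 of these were called, against 2.56% of the 8485 genes tested. Over all genes 1.79% were called higher and 0.766% lower. Among the tested rows 4 of 6 had a positive log2 difference, with a median of 0.16, beside a median of -0.03 over all genes. mt-Co3, mt-Atp6 and mt-Atp8 did not pass the filter here or in any other comparison, and mt-Co2 passed it only here.

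mt-Rnr2, the large rRNA, stood at 18660, 15660 and 19450 CPM in control mice 1 to 3 and at 31720, 26220, 28110 and 23690 CPM in nanoplastics mice 1 to 4. Every nanoplastics mouse was above every control, and the groups did not overlap. The share of all tested genes without overlap is not given for any comparison. Lack of overlap therefore serves here and below as description only. The means were 17920 ± 2000 (SD, n = 3) and 27440 ± 3383 CPM (SD, n = 4), a log2 difference of 0.61 (SE 0.11, edgeR adjusted p = 0.0183). mt-Rnr1, the small rRNA, stood at 5878, 5343 and 5877 CPM in controls and at 8636, 8260, 8287 and 7333 CPM with nanoplastics. Here too the groups were separate, with a log2 difference of 0.51 (SE 0.11, adjusted p = 0.0250).

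mt-Cytb, an electron-carrying subunit of complex III, stood at 62790, 56090 and 50640 CPM in controls and at 67950, 76470, 73050 and 62160 CPM with nanoplastics. Only nanoplastics mouse 4 fell inside the control range, just under control mouse 1. The log2 difference of 0.31 (SE 0.10) did not pass the test (adjusted p = 0.104). It passed without control mouse 1 (0.42, adjusted p = 0.0304) and when replicate numbers, which the labels do not tie to shared animals, were entered as a block (0.37, adjusted p = 0.0139).

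mt-Co1, the copper- and heme-bearing subunit of complex IV, stood at 94250, 57500 and 54880 CPM in controls and at 78160, 72570, 69170 and 59360 CPM with nanoplastics. Control mouse 1 was the highest of the 7 mice and the other controls the lowest, so the nanoplastics mice lay inside the control range. The log2 difference was 0.02 (SE 0.18, adjusted p = 0.972), and its sign changed under other scalings and weights.

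mt-Tm, the row of the tRNA that reads the methionine codon, stood at 57.73, 14.69 and 13.60 CPM in controls and at 28.25, 18.94, 16.79 and 18.94 CPM with nanoplastics. The kit captured polyadenylated RNA, and the row lies directly before mt-Nd2. Whether its counts, here and below, come from the tRNA or from longer RNAs that span it was not tested. Control mouse 1 was again highest, and the groups overlapped (-0.50, SE 0.63, adjusted p = 0.75). Without control mouse 1 the sign turned, to 0.57 (adjusted p = 0.242). mt-Co2 was at 4.59, 5.623 and 1.447 CPM in controls and at 3.767, 4.62, 3.65 and 1.722 CPM with nanoplastics. These few counts overlapped between groups as well (-0.33, SE 0.39, adjusted p = 0.725).

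**Figure D2:**
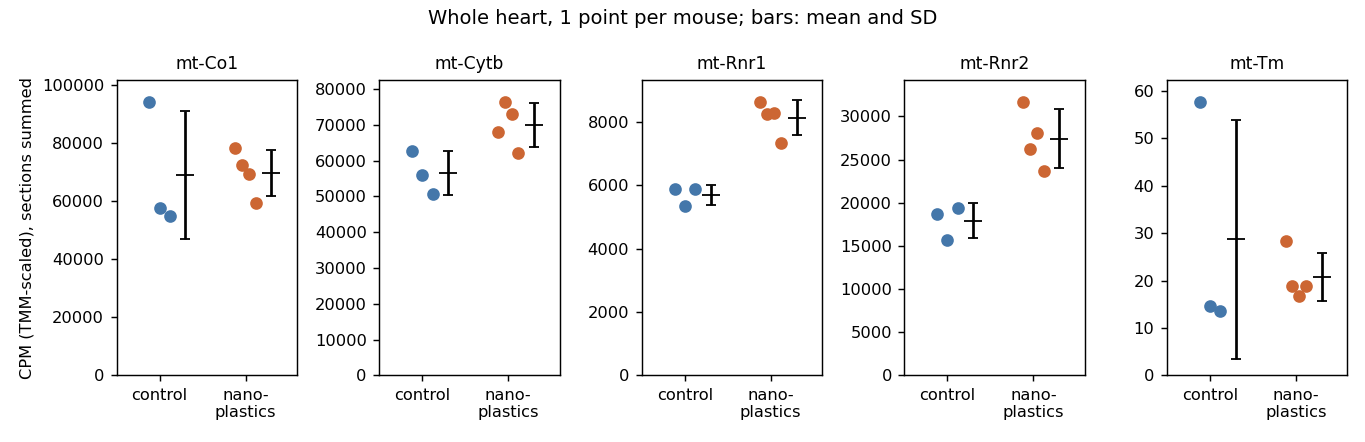
CPM after TMM scaling of 5 rows in each mouse, with the 3 sections summed (vertical, linear axes from 0), for 3 control and 4 nanoplastics mice; crosses show the mean and bars the SD. The groups are separate for mt-Rnr1 and mt-Rnr2 and overlap for mt-Co1, mt-Cytb and mt-Tm.

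Along mitochondrial DNA, from the rRNAs onward, the log2 differences were 0.51 for mt-Rnr1, 0.61 for mt-Rnr2, 0.32 for mt-Nd1, -0.50 for mt-Tm, 0.64 for mt-Nd2, 0.02 for mt-Co1, -0.33 for mt-Co2, 0.58 for mt-Nd3, 0.58 for mt-Nd4, 0.32 for mt-Nd5, -0.08 for mt-Nd6 and 0.31 for mt-Cytb. Called among them, beside the rRNAs, were mt-Nd2 (adjusted p = 0.0102), mt-Nd3 (0.0261) and mt-Nd4 (0.0250), subunits of complex I. No test of gene order was run, and of the differences between rows those of the ratios given further on were tested.

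The rRNA calls depended on the sections and mice that entered. Control mice drew 36.48 to 43.95% of their counts from the right ventricle, and nanoplastics mice 0.1995 to 27.91%. Without any right ventricular library, a choice made after seeing the data, the log2 differences were 0.34 for mt-Rnr1 (adjusted p = 0.140) and 0.31 for mt-Rnr2 (adjusted p = 0.210), and neither passed. With sections at equal weight, a fit made in limma, the differences stayed near their size at 0.45 and 0.55 but were not called (adjusted p = 0.734 for both), and neither was any other gene. Without control mouse 2 they were 0.48 for mt-Rnr1 (adjusted p = 0.159) and 0.53 for mt-Rnr2 (adjusted p = 0.141), with 0 of all genes called. mt-Rnr1 alone lost its call, at 0.54 without control mouse 3 (adjusted p = 0.0566, 27 genes called) and at 0.51 without nanoplastics mouse 2 (adjusted p = 0.0650, 26 genes called).

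Markers of cell types in the same whole-heart fit were counted too. Of 8 heart muscle markers all had positive differences and Tnni3 was called (list median 0.33), and of 6 fibroblast markers all were positive and Dcn was called (0.63). Of 3 ventricular muscle markers only Myl2 had a positive difference, and it was called higher (list median -0.21). Of 6 endothelial markers 1 was positive (-0.14), while all 4 smooth muscle (0.42) and all 4 erythroid markers (0.60) were, with none of these called. The 4 atrial muscle markers had a median of 6.32 with none called, in mice of which 1 held the atrial library rich in them. The part of these cell types in the rRNA difference was not tested.

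Library scaling and transcript length also moved with treatment. The median annotated transcript length per count, without mitochondrial rows, was 1697 to 1785 nucleotides in the 3 control mice and 1445 to 1581 in the 4 nanoplastics mice. With the trend on length removed, mt-Rnr2 stayed called (0.59, adjusted p = 0.0124) and mt-Rnr1 did not (0.34, adjusted p = 0.0851). Scaled by library totals alone, the median over all genes fell from -0.03 to -0.27, and the calls over all genes turned from 152 higher and 65 lower to 43 higher and 754 lower. On that scale mt-Rnr2 was at 0.36 (adjusted p = 0.0233) and mt-Rnr1 at 0.26 (adjusted p = 0.0554), both above the median of all genes. The part of these measures in the rRNA difference was not tested.

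In the right ventricle the rRNAs stood furthest from control. As shares of each library's counts, mt-Rnr2 took 1.698 to 1.772% in the 3 control libraries and 2.51 to 6.369% in the 4 nanoplastics libraries, and mt-Rnr1 took 0.5908 to 0.5985% and 0.858 to 1.322%. On this measure neither pair of ranges overlapped, also with the library of 4662 counts, where mt-Rnr2 had 117 counts (2.51%, 95% Wilson interval 2.098 to 2.999) and mt-Rnr1 had 40 (0.858%, 0.6307 to 1.166). These intervals cover counting error only. On CPM after TMM scaling of all 7 libraries both rRNAs did overlap. There mt-Rnr2 ran from 11570 to 92320 CPM with nanoplastics and from 18040 to 18910 CPM in controls. For mt-Rnr1 the ranges were 3954 to 19170 and 6223 to 6487 CPM. The library of 4662 counts gave both minima, under all controls. With all 7 libraries in the fit, 5 of the 9 rows were tested and 0 were called, against 0.869% of 4489 genes (606 at an unadjusted p under 0.05, and 0 of all genes by DESeq2). The log2 differences were 1.31 for mt-Rnr2 (SE 0.64, adjusted p = 0.336) and 0.94 for mt-Rnr1 (SE 0.51, adjusted p = 0.422).

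Without that library both rRNAs were called, beside 1.31% of 5201 genes tested (1.12% higher, 0.192% lower). mt-Rnr2 stood at 16290, 16640 and 15620 CPM in control right ventricles and at 77390, 36620 and 31180 CPM in those of nanoplastics mice 1, 3 and 4. The controls were close together and the nanoplastics libraries spread widely, mouse 1 highest, with no overlap. The means were 16180 ± 517 and 48390 ± 25260 CPM (SD, n = 3 each), 2.99-fold, with a log2 difference of 1.58 (SE 0.27, adjusted p = 0.0236). mt-Rnr1 stood at 5713, 5548 and 5389 CPM in controls and at 16070, 9699 and 11610 CPM with nanoplastics, again without overlap, 2.24-fold higher (1.17, SE 0.18, adjusted p = 0.00300). In the fit with the library of 4662 counts, nanoplastics mouse 1 set much of the size. Leaving out that mouse there took mt-Rnr2 from 1.31 to 0.70 (adjusted p = 0.826) and mt-Rnr1 from 0.94 to 0.61 (adjusted p = 0.814). No fit without both this library and mouse 1 is given. In the fit without the library alone, mice 3 and 4 lay above all controls for both rRNAs.

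The mRNAs mt-Co1 and mt-Cytb were not called in the same fit. mt-Co1 stood at 78150, 65340 and 59530 CPM in controls and at 79040, 70160 and 44880 CPM in nanoplastics mice 1, 3 and 4, which enclosed the control values (-0.07, adjusted p = 0.923, and -0.28, adjusted p = 0.907, with all 7 libraries). As a share of counts, with no scaling between libraries, mt-Co1 took 6.611 to 8.145% in the 3 controls and 4.152 to 6.506% in the 4 nanoplastics libraries, so on that measure all nanoplastics libraries lay under all controls. mt-Cytb stood at 61910, 65450 and 53620 CPM and at 69690, 80060 and 54620 CPM, with overlap (0.18, adjusted p = 0.707, and -0.05, adjusted p = 0.988, with all 7 libraries). mt-Tm stood at 54.49, 18.87 and 18.24 CPM in controls and at 18.58, 10.73 and 14.81 CPM with nanoplastics, where 1 control lay above all others and the groups overlapped (-1.15, adjusted p = 0.290). With all 7 libraries mt-Tm was at -1.14 (SE 0.35, adjusted p = 0.0666), with a range of -1.39 to -0.39 when 1 mouse was left out. It was called without control mouse 3 (-1.39, adjusted p = 0.0361), and it was at -0.39 without control mouse 1 (adjusted p = 0.848). The library of 4662 counts held no mt-Tm count, which allows up to 643.5 CPM. Beside the rRNAs, the complex I mRNAs mt-Nd2 (0.79, adjusted p = 0.0279) and mt-Nd4 (0.97, adjusted p = 0.0153) were called higher in that fit too. mt-Nd1 and mt-Nd3 also did not overlap between groups there, without passing the test, and the share of all genes without overlap is not given.

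Other measures of these libraries were as follows. Hemoglobin and other erythroid genes summed to 825.9, 1438 and 2726 CPM in the right ventricles of nanoplastics mice 1, 3 and 4 and to 464.1, 1648 and 682.6 CPM in controls, which overlap, and none of 4 such genes was called. In the fit without the library of 4662 counts, 1 of 8 heart muscle markers (list median 0.54), 1 of 2 ventricular and the 1 tested atrial muscle marker were called higher. Total counts were 438053 to 813585 there with nanoplastics and 1333133 to 2042568 in controls, and the median transcript length was 1473 to 1596 against 1698 to 1791 nucleotides. Their part in the rRNA difference was not tested.

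**Figure D3:**
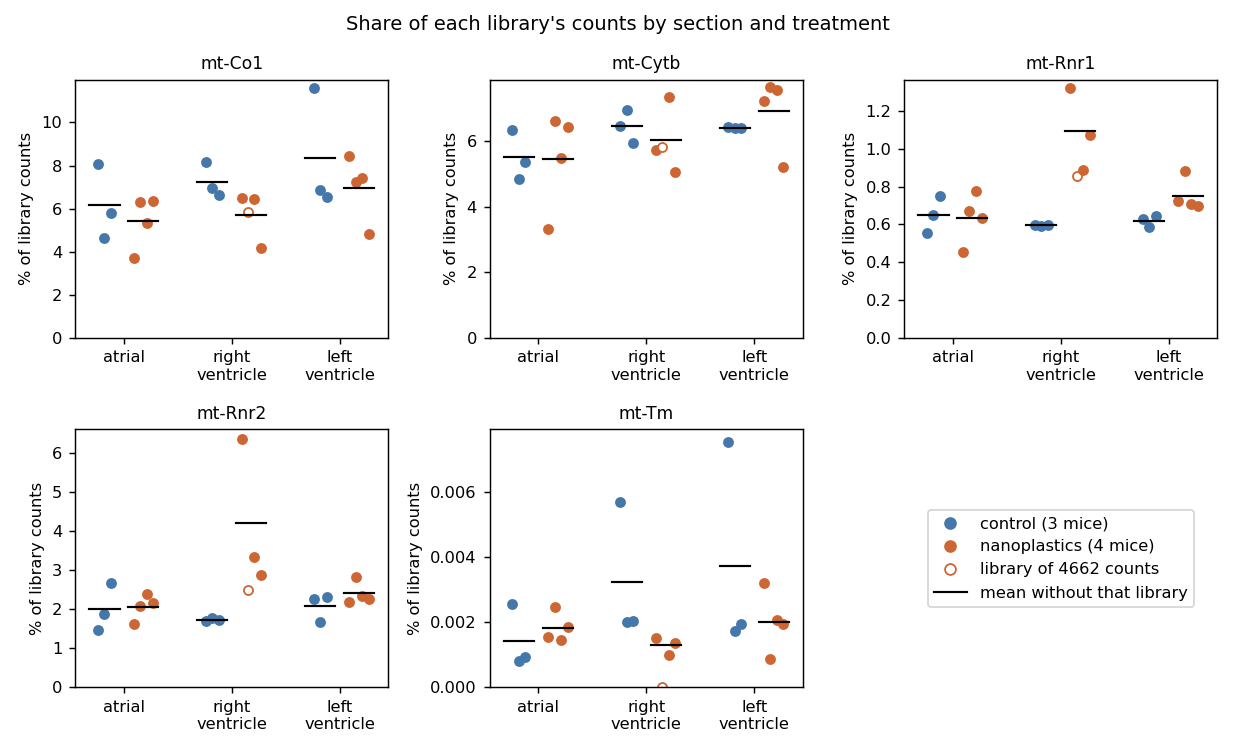
Percent of each library's counts taken by 5 rows (vertical, linear axes from 0) in the atrial section, right ventricle and left ventricle of 3 control and 4 nanoplastics mice; the open circle is the library of 4662 counts and lines are group means without it. The rRNAs of nanoplastics right ventricles lie above all 3 controls, those of mt-Co1 lie under all 3 controls, and mt-Cytb overlaps in every section.

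In the left ventricle none of the 5 rows tested was called, against 0.0551% of 5440 genes (3 by edgeR, 52 by DESeq2). Among the 3 genes called by edgeR were the complex I mRNAs mt-Nd2 (0.65, adjusted p = 0.0414) and mt-Nd4 (0.68, adjusted p = 0.0414), both higher. mt-Rnr1 stood at 6520, 5162 and 6062 CPM in controls and at 8166, 9650, 7477 and 7129 CPM with nanoplastics. These groups did not overlap, although the log2 difference of 0.45 (SE 0.13) did not pass the test (adjusted p = 0.138). mt-Rnr2 stood at 23660, 14880 and 21800 CPM and at 24910, 31120, 24730 and 23150 CPM, where nanoplastics mouse 4 lay under control mouse 1 (0.37, adjusted p = 0.230).

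mt-Cytb in the left ventricle stood at 66940, 56690 and 60110 CPM in controls and at 81990, 84020, 79790 and 53370 CPM with nanoplastics. The fourth nanoplastics mouse was the lowest of all 7 and the other nanoplastics mice the highest (0.29, adjusted p = 0.345). mt-Co1 ranged from 60800 to 120400 CPM in controls and from 49360 to 95390 CPM with nanoplastics (-0.10, adjusted p = 0.932). mt-Tm ranged from 15.38 to 78.36 and from 9.478 to 36.19 CPM (-0.86, adjusted p = 0.679). In these rows the highest control was mouse 1.

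In the atrial section no row and no gene was called (0% of 5502 genes by edgeR, 674 at an unadjusted p under 0.05, 2 genes by DESeq2). mt-Rnr2 stood at 14260, 17490 and 24850 CPM in controls and at 17690, 22890, 25860 and 24170 CPM with nanoplastics. mt-Rnr1 stood at 5386, 6009 and 6961 CPM and at 4932, 7328, 8354 and 7106 CPM. For both rRNAs the groups overlapped, with log2 differences of 0.26 (adjusted p = 0.643) and 0.18 (adjusted p = 0.754).

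mt-Cytb stood at 61670, 44690 and 49830 CPM in control and at 36150, 72210, 59150 and 72130 CPM in nanoplastics atrial libraries, and mt-Co1 ranged from 42890 to 78480 and from 40160 to 71060 CPM. The atrial library of nanoplastics mouse 1, the one rich in atrial muscle markers, had the lowest share of the 9 rows of all 21 libraries, 9.114%. It was also the lowest of the 7 for mt-Co1, mt-Cytb and mt-Rnr1. Without nanoplastics mouse 1 the log2 differences were 0.38 for mt-Cytb (adjusted p = 0.287), 0.31 for mt-Rnr1 (0.376) and 0.37 for mt-Rnr2 (0.419), still not called. mt-Tm was at 0.60 (adjusted p = 0.564).

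Whether the response differed between sections was tested with interaction terms over all 21 libraries, and no row and none of the 6686 genes passed for any of the 3 pairs of sections (0% each, with 209 to 352 genes at an unadjusted p under 0.05). The rRNA responses were 0.69 (mt-Rnr2) and 0.37 (mt-Rnr1) higher on the log2 scale in the right than in the left ventricle (adjusted p = 1 for both). Those values were 1.18 and 0.76 without the library of 4662 counts, and 0.16 and 0.10 without nanoplastics mouse 1 but with that library. With that library in the fit, most of the gap thus rested on mouse 1. For mt-Tm the response in the atria exceeded that in the right ventricle by 1.80 (SE 0.47, unadjusted p = 0.000275, adjusted p = 0.421). An effect called in the right ventricle and not elsewhere is therefore not shown to be particular to it.

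**Figure D4:**
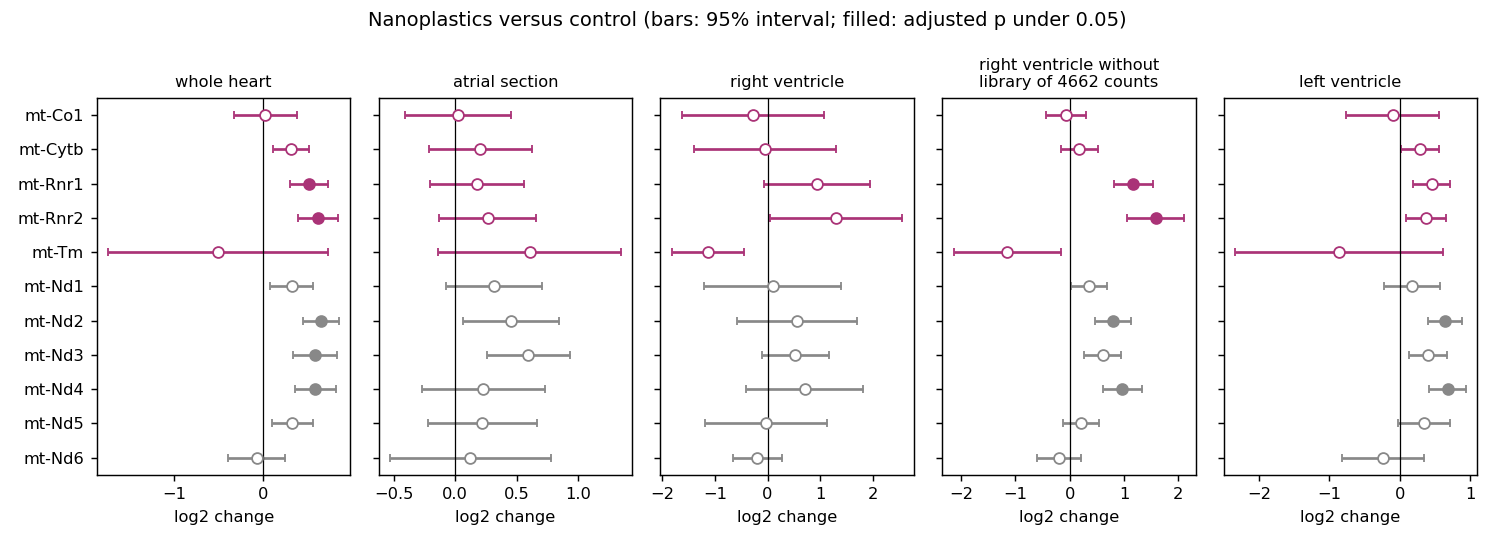
Log2 change with nanoplastics for 5 rows and 6 complex I rows in the whole heart and in each section (horizontal, scales differ between panels); bars are the 95% interval from the SE and filled points have an adjusted p under 0.05. mt-Rnr1 and mt-Rnr2 are filled in the whole heart and in the right ventricle without the library of 4662 counts, and mt-Co1 lies between -0.28 and 0.02 in every panel.

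Within a library, the ratio of 2 members does not depend on scaling, and mt-Co1 to mt-Rnr2 sets an mRNA against an rRNA of the same genome. In the right ventricle there were 4.796, 3.927 and 3.810 mt-Co1 counts per mt-Rnr2 count in controls and 1.021, 2.328, 1.916 and 1.440 in nanoplastics mice 1 to 4. All 4 nanoplastics libraries lay under all 3 controls. The mean log2 ratios were 2.05 ± 0.18 and 0.68 ± 0.52 (SD, n = 3 and 4), a difference of -1.38 (two-sided exact permutation p = 0.0286, the smallest that 35 splits can give, adjusted p = 0.286 over 20 tests). The mean over a mouse's sections differed by -0.69 (exact p = 0.0286, adjusted p = 0.286), also without overlap. Neither passed the correction. At this smallest p, a ratio can pass over 20 tests only if many of them reach it together, so the correction could hardly be passed. Without the library of 4662 counts the differences were -1.56 in the right ventricle and -0.67 over sections.

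In the left ventricle the ratio was 5.087, 4.085 and 2.816 in controls and 3.829, 2.554, 3.164 and 2.132 with nanoplastics, with overlap (-0.45, exact p = 0.2). In the atria it was 5.502, 2.452 and 2.160 and then 2.270, 3.001, 2.219 and 2.940 (-0.25, exact p = 0.686). Control mouse 1 had the highest ratio of the control mice in every section. The ratio of the rRNAs to each other, mt-Rnr2 to mt-Rnr1, differed between treatments by -0.06 to 0.24 on the log2 scale over the sections and the whole heart (exact p = 0.343 to 0.571). None of the 15 section tests on ratios passed (adjusted p = 0.953 for each).

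**Figure D5:**
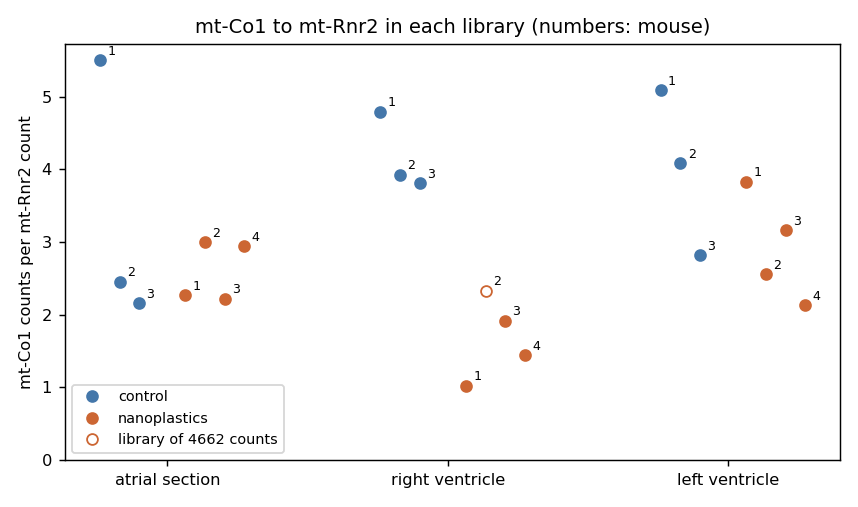
mt-Co1 counts per mt-Rnr2 count in each library (vertical, linear axis from 0) by section and treatment, with mouse numbers beside the points and an open circle for the library of 4662 counts. The 4 nanoplastics right ventricles lie between 1.021 and 2.328, under the controls at 3.810 to 4.796.

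Between sections of the same mice, no row was called. From atria to left ventricle, 0.197% of 6604 genes were called. All 5 rows tested were lower in the atria at an unadjusted p under 0.05 (edgeR), with a median of -0.44. Over all genes the median was 0.008, and 806 of 6604 had an unadjusted p under 0.05. The rows share libraries and scaling, so they are not independent. mt-Rnr1 was at -0.25 (adjusted p = 0.3085), mt-Rnr2 at -0.29 (adjusted p = 0.261) and mt-Tm at -0.75 (adjusted p = 0.305). mt-Co1 averaged 55860 ± 13950 CPM in the atria and 80980 ± 25250 CPM in the left ventricle (SD, n = 7), a log2 difference of -0.52 (SE 0.18, adjusted p = 0.300), and mt-Cytb 53620 ± 13160 and 71760 ± 13750 CPM (-0.44, adjusted p = 0.264). Both passed without nanoplastics mouse 4, at -0.67 (adjusted p = 0.000778) and -0.56 (adjusted p = 0.00371). The atrial muscle markers of that mouse's left ventricle, 2248 CPM, were the highest of the ventricular libraries.

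mt-Tm was the row with the smallest unadjusted p between the right ventricle and each other section. It averaged 18.12 CPM in the atria against 21.16 CPM in the right ventricle (-0.68, adjusted p = 0.193, 0.664% of 6321 genes called) and 20.24 CPM in the right against 31.37 CPM in the left ventricle (-0.47, adjusted p = 0.686, 0.0464% of 6463 genes called). Over the 3 pairs of sections mt-Rnr1 differed by -0.25 to 0.03 and mt-Rnr2 by -0.29 to -0.04 on the log2 scale, with no call. mt-Co1 was at -0.05 from atria to right ventricle and at -0.48 from right to left, and mt-Cytb at -0.08 and -0.36, also not called. Without the library of 4662 counts mt-Tm was at -0.69 (adjusted p = 0.485) from atria to right ventricle and at -0.47 (adjusted p = 0.883) from right to left, mt-Rnr1 at -0.42 and 0.23 and mt-Rnr2 at -0.45 and 0.22, and no row was called.

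Across the 20 deeper libraries the members fell into groups by their levels. On log2 CPM, mt-Rnr1 and mt-Rnr2 had a Pearson correlation of 0.95, and mt-Co1 and mt-Cytb 0.82, whereas mt-Co1 had 0.25 with mt-Rnr1 and 0.27 with mt-Rnr2. mt-Cytb followed mt-Nd5 (0.95) and mt-Nd1 (0.90), and mt-Rnr1 followed mt-Nd2 (0.83) and mt-Nd4 (0.76), while mt-Co1 and mt-Nd4 stood at -0.06. These values share library depth, mice and the scaling, and serve as description only.

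Among 6501 genes not encoded in mitochondrial DNA, those most like the mean of the 6 member mRNAs were Cd59a (0.86), Mob4 (0.81), Zfp367 (0.81), C330018D20Rik (0.81) and Gpr22 (0.80), and the least like were Ubxn1 (-0.86), Cdc5l (-0.80), Mmp2 (-0.78), Akr1a1 (-0.78) and Anxa5 (-0.77). That mean gives equal weight to 4 mRNAs with almost no counts. For mt-Co1 and mt-Cytb alone, chosen after seeing the data, Asb11 led with 0.94, and for the rRNAs Kiz led with 0.84, followed by Cox8b, a muscle subunit of complex IV, with 0.81.

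The nuclear genes whose products join the members in complexes III, IV and V were compared in the same whole-heart fit. Of 15 nuclear complex IV genes 6 rose and none fell, beside 1.79% of all genes called higher, with a median log2 difference of 0.45. They were Cox6a2 (0.87, adjusted p = 0.00681), the heart and muscle form of a subunit, Cox6b1 (0.58, 0.0183), Cox8b (0.53, 0.0277), Cox5b, Cox7b and Cox7a2. Of 17 complex V genes 6 rose and none fell (median 0.46), among them Atp5h (0.51, adjusted p = 0.0250) and Atp5e (0.59, 0.0307). Of 9 complex III genes 2 rose and none fell, Uqcrh (0.55, adjusted p = 0.0293) and Uqcrb (0.45, 0.0433), with a median of 0.25. As for the rRNAs, none of these calls held at equal section weight or without control mouse 2, where 0 of all genes were called. The shorter transcript length per count of the nanoplastics mice, given above, moved with these lists too, and its part was not tested.

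Genes of the machinery that makes and matures mitochondrial RNA gave no call. Of 13 tested genes for mitochondrial transcription and DNA maintenance, 30 for RNA processing and stability and 30 for assembly of complexes III to V, none was called, with medians of 0.03, -0.10 and -0.07. In the right ventricle without the library of 4662 counts, 4 of 15 nuclear complex IV genes and 2 of 17 complex V genes were called higher, beside 1.12% of 5201 genes, and none of 9 complex III, 9 transcription, 17 RNA processing or 28 assembly genes was called in either direction.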

How the data were processed

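The deposited table gives whole-number counts per gene, 1 column per library. STAR was used, per the submitters' processing notes, with the version, counting tool, strand setting, handling of shared reads, annotation, genome build and any collapsing of molecular identifiers not given in the sources used here. From these counts, edgeR 4.0.16 in R 4.3.3 (TMM scaling, filterByExpr, robust quasi-likelihood test, Benjamini-Hochberg adjustment, threshold 0.05) compared 3 control with 4 nanoplastics mice, in sums over a mouse's sections and within each section, and sections with mouse as a block. Alternatives used DESeq2 1.42.0, limma 3.58.1 and other scalings, filters and libraries. Ratios were tested by exact permutation, with a pseudocount of 0.5 counts. GENCODE M21 transcripts gave lengths (20504 of 20960 genes), copies and sequences; no coordinates are given because the build is not known. All 9 rows are named, with values in each treatment and each section comparison for those that passed its filter. From other lists, counts and up to 4 called genes by smallest p are named. The remaining called complex IV genes were added after their values were seen. For likeness, the 5 genes highest and the 5 lowest are named. The rows and lists were chosen with earlier results of these data known. No pair of the 21 libraries held identical counts. The labels tie replicates to separate mice. Library depth was 4662 to 2439314 counts.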

Additional observations from a re-analysis of the deposited data

Results flagged for a closer look

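The left ventricle of nanoplastics mouse 4 held 53370 CPM of mt-Cytb, far from the other nanoplastics left ventricles at 79790 to 84020 CPM. Of 29 groups examined this was the 1 with a sample so far from the rest, and chance alone sets apart about 1 in 20 groups. The same library carried atrial muscle markers at 2248 CPM, more than any other ventricular library, and erythroid genes at 1845 CPM; the part of either was not tested.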

How the results depend on the processing

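The whole-heart rRNA calls were lost without the right ventricles, where the differences also shrank, and at equal weight in limma or without control mouse 2, where they stayed near their size and 0 of all genes were called. Of the members, 2 were called in the whole heart; 1 was called with library totals alone or with the transcript length trend removed, 0 with sections at equal weight or without all right ventricular libraries, and 0 to 3 with 1 mouse left out (0 without control mouse 2, 1 without control mouse 3 or nanoplastics mouse 2, 3 without control mouse 1). In the right ventricle 0 were called; library totals alone gave 2, leaving out the library of lowest depth 2, and leaving out 1 mouse 0 to 2. Atria against left ventricle gave 0, but 2 (mt-Rnr2 and mt-Tm) with no filter on low counts and 0 to 2 with 1 mouse left out, and atria against right ventricle gave 0 to 1, the 1 being mt-Tm without nanoplastics mouse 4. With the replicate block, 3 members were called in the whole heart, where mt-Rnr1 was at 0.57 (adjusted p = 0.00119) and mt-Rnr2 at 0.69 (adjusted p = 0.000558). Same-numbered control and nanoplastics mice had correlations of 0.068, 0.09 and -0.043. These few values cannot tell whether such mice were handled together, and the labels do not say.

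Signs turned, all without a call. mt-Co1 in the whole heart was at -0.22 with library totals, -0.0058 with no filter, -0.0020 with the length trend removed, -0.14 at equal weight and -0.0155 without right ventricles, and mt-Co2 at 0.0637 with the replicate block. In the atria, library totals gave -0.20 for mt-Co1, -0.0216 for mt-Cytb and -0.0491 for mt-Rnr1, the length trend -0.0236 for mt-Co1, -0.0165 for mt-Rnr1 and -0.19 for mt-Tm, and the replicate block -0.0413 for mt-Co1. In the right ventricle the length trend gave 0.41 for mt-Co1 and 0.57 for mt-Cytb, which was at 0.18 without the library of lowest depth; in the left, the replicate block gave 0.16 for mt-Co1. Between right and left ventricle the length trend gave 0.045 for mt-Cytb, no filter -5e-04 for mt-Rnr1, and for mt-Rnr2 library totals gave 0.22, the length trend 0.34, no replicate block 0.14 and the library of lowest depth left out 0.22. The mt-Tm to mt-Nd2 ratio there was -0.53 with no pseudocount and -0.50 without that library. The cause was not tested.

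With each mouse left out in turn, the ranges that crossed 0 were, in the whole heart, -0.11 to 0.34 for mt-Co1, -0.62 to 0.0165 for mt-Co2 and -0.83 to 0.57 for mt-Tm. They were -0.15 to 0.31 for mt-Co1 in the atria, -0.26 to 0.18 for mt-Cytb in the right ventricle, and -0.27 to 0.34 for mt-Co1 and -1.33 to 0.54 for mt-Tm in the left. From atria to right ventricle they were -0.29 to 0.13 (mt-Co1), -0.34 to 0.0866 (mt-Cytb), -0.42 to 0.0032 (mt-Rnr1) and -0.45 to 0.0796 (mt-Rnr2), and from right to left ventricle -0.12 to 0.23 (mt-Rnr1) and -0.30 to 0.22 (mt-Rnr2). The difference of mt-Rnr2 responses between atria and left ventricle ran from -0.43 to 0.0665. For mt-Rnr2 to mt-Rnr1 they were -0.0877 to 0.027 (atria minus left), -0.0759 to 0.0519 (atria minus right) and -0.14 to 0.0281 (right minus left), for mt-Co1 to mt-Rnr2 -0.51 to 0.17 in the atria, and for mt-Tm to mt-Nd2 -0.0388 to 0.87 in the atria, -0.89 to 0.0086 in the whole heart and -0.50 to 0.32 between ventricles.

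Over all genes, calls ranged over the alternatives from 0 to 797 in the whole heart (217 as fitted, 350 with the replicate block), 0 to 125 in the atria (0), 0 to 234 in the right ventricle (39), 0 to 52 in the left (3), 2 to 133 from atria to left ventricle (13), 0 to 115 from atria to right ventricle (42) and 0 to 8 between ventricles (3). Library totals alone turned 27 higher and 12 lower calls in the right ventricle into 11 and 223, and 2 and 1 in the left into 0 and 23. Of the single values under all alternatives, 672 kept their direction and their side of the threshold, 66 turned sign, 14 passed the threshold newly and 10 no longer passed it. Leaving out all right ventricles and the alternatives for responses between sections were chosen after seeing the data. Depth limits mt-Co2, mt-Co3, mt-Atp6 and mt-Atp8, whose 2 planned ratios had too few counts to give.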
